A study of Rattus norvegicus with 14 samples.

Results

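Aortas of rats with chronic kidney failure were compared with aortas of rats with intact kidneys, where both groups had received vitamin D. The question is which aortic transcripts differ with uremia when the vitamin is given on both sides. The comparison takes 9 of the 14 libraries of the study, 1 library per rat and all from male Dark Agouti rats. The 5 uremic rats (numbers 9, 17, 20, 27 and 28) had a 5/6 nephrectomy, which removes most of the kidney tissue, and lived with uremia for 14 weeks. For the last 6 of these weeks they were given 30 ng of alfacalcidol, a vitamin D prodrug, 3 times a week. The 4 control rats given vitamin D (36, 37, 38 and 39) had intact kidneys, and the labels give no dose, length of treatment or length of study for them. According to the series text, calcification in this model also takes phosphate-rich food, and it is not said which rats were fed it. Kidney function therefore cannot be told apart from vitamin D dose, its duration or diet. The 5 untreated control rats (41, 42, 43, 44 and 46) had intact kidneys and no vitamin D, and appear only as values set beside the comparison. The members are genes: 9916 of the 17019 in the deposited table reached an FPKM (sequenced fragments per length of transcript and per depth of the library) of 1 in at least 4 of the 9 libraries.

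The wall of the aorta is built mainly by smooth muscle cells in layers of elastic fibres, with endothelium on the inside and fibroblasts, nerves and fat on the outside. In chronic kidney disease phosphate is retained, and calcium phosphate can be deposited in the medial layer. Smooth muscle cells in calcifying arteries are known to lose contractile proteins and to make proteins of bone and cartilage, while other proteins of the wall, such as matrix Gla protein and the enzymes that make pyrophosphate, hold mineral back. Vitamin D acts through a nuclear receptor and raises the uptake of calcium and phosphate in the gut.

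RNA came from aortas dissected between the renal arteries and the heart, and polyadenylated RNA was sequenced. Whole reads, recovered from the steps of the FPKM values in 10914 genes, summed to between 1316939 in rat 37 and 4449727 in rat 27, with a median of 59 reads per gene and library. The deepest library, rat 27, carries a pair of index sequences in its label. Markers of smooth muscle were high in every library (Myh11 at 1342 to 2446 FPKM in uremic rats and 1638 to 3274 FPKM in vitamin D controls), and endothelial Pecam1 and fibroblast Lum were present in all. The heart markers Myh6 and Myl7 stayed under 1 FPKM in all 9 libraries, as did the T cell marker Cd3e and the B cell marker Ms4a1. Other heart and skeletal muscle genes were present, and 11 of the 29 in that list passed the filter. The list summed to 231 to 433 FPKM in uremic rats and 355 to 481 FPKM in vitamin D controls. Brown fat transcripts were present in every library: Ucp1, the uncoupling protein of brown fat, ran from 5.73 to 40.9 FPKM in uremic rats and from 62.1 to 289 FPKM in vitamin D controls. A brown fat score, the mean log2(FPKM + 1) of 6 brown fat genes (Ucp1, Cidea, Cox8b, Cpt1b, Otop1 and Slc27a2), lay between 2.79 (rat 17) and 5.20 (rat 27) in uremic rats and between 4.90 (rat 39) and 7.0 (rat 38) in vitamin D controls. It thus separated the groups except for rats 27 and 39. In these bulk samples, fewer cells of a type and less RNA per cell cannot be told apart. Rat 37 stood apart among the vitamin D controls, since several matrix and inflammatory genes were far higher in it than in the other controls, as given below. Without it 1296 genes were called in the comparison that follows, against 1311 with it.

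The groups differed in 1311 of the 9916 genes tested (13.2%), by limma on log2(FPKM + 1) with Benjamini-Hochberg adjustment and a threshold of 0.05. Of these, 713 genes (7.19% of those tested) were higher in uremic aortas and 598 (6.03%) were lower. A log2 difference of 1 or more was reached by 590 genes (5.95%), 347 higher and 243 lower. The median gene differed by 0.0058 on the log2 scale, the 5th percentile of all genes was -0.79 and the 95th was 0.89. The 5 uremic and 4 control values did not overlap in 1264 genes (12.7%), with the uremic rats above in 7.06% of all genes and below in 5.69%, and 926 of the 1264 also passed the test. A gene can enter the test through the group where it is high: 93 genes were under 1 FPKM in every vitamin D control, and 72 of them were called. Mepe, Acan, Etv4, Tnn, Ube2c, Gdf15 and Ciita, named below, are among these 72. Genes with only some vitamin D controls under 1 FPKM also needed uremic rats to pass, and they are not among the 93. Examples named below are Il6, Gdf6 and Kif20a, which reached 1 FPKM in rat 37 alone of these controls, and Olr1 and RT1-Bb. Only 5 genes were under 1 FPKM in every uremic rat, and 4 of them were called. Leaving out 1 rat moved the count between 663 (without rat 36) and 1681 (without rat 27). It was 713 without rat 38 and 869 without rat 20. With the brown fat score as a covariate in the same model 147 genes were called, 102 higher and 45 lower. In that fit 1289 of the 1311 genes kept their sign, their median absolute difference shrank from 0.94 to 0.73 on the log2 scale and their median SE rose from 0.21 to 0.30. The groups overlap in the score at rats 27 and 39 alone. The authors' deposited table gives a q value under 0.05 to 1631 genes, and 1036 of these were called here too, each in the same direction.

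**Figure D1:**
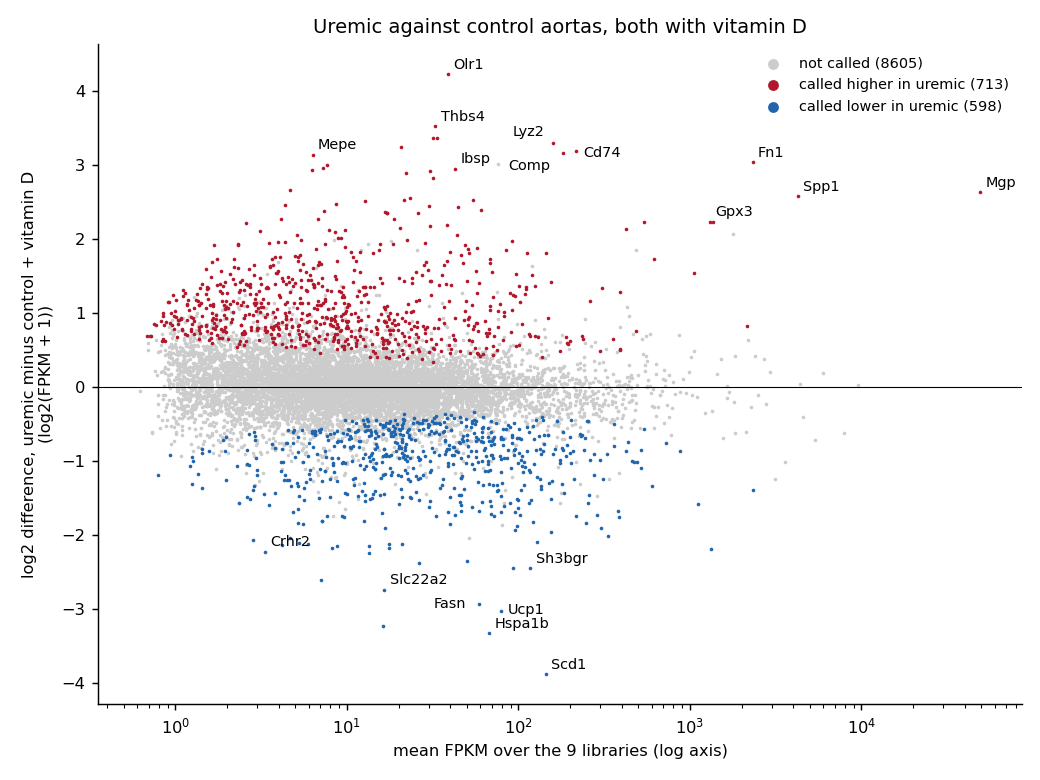
Each point is 1 of the 9916 tested genes, placed by its mean FPKM over the 9 libraries (log axis) and by its log2 difference, uremic minus control with vitamin D; red points were called higher (713) and blue points lower (598), grey points were not called. Mgp lies farthest to the right, Olr1 is the highest named point and Scd1 the lowest.

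In the following, values in series follow the rats in the order 9, 17, 20, 27 and 28 for uremic rats and 36, 37, 38 and 39 for vitamin D controls. Means are given with their SD over these 5 and 4 rats. Folds are ratios of group means, while log2 differences, SE and adjusted p come from limma on log2(FPKM + 1).

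The transcript with the highest FPKM of all tested genes was Mgp, matrix Gla protein, which binds mineral and holds calcification back (chromosome 4, 235113782 to 235117105, rn5). Mgp stood at 85442, 76487, 74900.4, 58041 and 98527 FPKM in uremic rats and at 11193, 17229, 11628 and 10871 FPKM in vitamin D controls. All uremic rats lay above all controls, and rat 37 was the highest control. The mean was 6.18-fold higher in uremic aortas (log2 2.63, SE 0.41, adjusted p = 0.003), at 78679.5 ± 14872 against 12730.5 ± 3015 FPKM, with 11135 ± 2072 FPKM in untreated controls (n = 5). The call ended with the brown fat score as a covariate (log2 2.49, adjusted p = 0.072), with no filter on low genes (log2 2.63, adjusted p = 0.22) and with quantile normalization (log2 0.94, adjusted p = 0.22). Mgp alone held between 13.3% and 19.5% of all FPKM in uremic libraries and between 2.42% and 4.00% in vitamin D controls. When libraries were rescaled to equal totals the median gene moved to -0.12 on the log2 scale and the share of higher calls dropped from 54.4% to 33.8%.

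Some bone matrix genes rose strongly, while most members of the list were not called. Of 20 genes of bone matrix and osteoblasts, 13 passed the filter, 5 rose and 1 fell, with a median log2 difference of 0.27 against 0.0058 over all genes. Spp1, osteopontin, a phosphoprotein that binds mineral and is also made by macrophages, stood at 8384, 7081, 5498, 3919 and 7881 FPKM in uremic rats and at 761, 3281, 627 and 789 FPKM in vitamin D controls. Rat 37 came close to the lowest uremic rat, while the other controls were far below it. The mean rose 4.80-fold (log2 2.58, SE 0.45, adjusted p = 0.005), and untreated controls averaged 443 ± 101 FPKM.

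Ibsp encodes bone sialoprotein, which seeds mineral in bone. It stood at 78.2, 79.7, 49.2, 61.3 and 80.6 FPKM in uremic rats and at 7.77, 9.70, 4.47 and 11.9 FPKM in vitamin D controls, 8.26-fold higher without overlap (log2 2.95, SE 0.24, adjusted p = 1.8e-04). Untreated controls averaged 2.44 ± 1.10 FPKM. Mepe, a phosphoprotein of osteocytes, averaged 11.1 ± 5.42 FPKM in uremic rats and was at or near 0 in vitamin D controls (0 to 0.581 FPKM; log2 3.14, SE 0.32, adjusted p = 3.5e-04). Mepe was listed at 0 in all untreated controls, and it passed the filter through uremic rats alone. Sost encodes sclerostin, a Wnt inhibitor that osteocytes secrete. Sost stood at 185, 88.2, 148, 64.5 and 207 FPKM against 30.3, 24.4, 24.00 and 55.04 FPKM, 4.15-fold higher without overlap (log2 1.97, SE 0.35, adjusted p = 0.0053), and untreated controls averaged 11.5 ± 5.73 FPKM. Runx2, the transcription factor that directs osteoblast formation, rose 5.75-fold from 1.05 ± 0.487 FPKM to 6.02 ± 1.93 FPKM (log2 1.75, SE 0.26, adjusted p = 0.0021).

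Other osteoblast genes did not pass. Alpl, the alkaline phosphatase that breaks down pyrophosphate, averaged 21.3 ± 11.2 FPKM in uremic rats and 28.5 ± 9.34 FPKM in vitamin D controls (log2 -0.50, SE 0.35, adjusted p = 0.39, 95% interval -1.27 to 0.27), with overlapping groups. Bglap, which encodes osteocalcin, was listed at 0 in all 4 vitamin D controls and in 3 of 5 uremic rats. The member that fell was Phospho1, a phosphatase of matrix vesicles, which is outside the naming rule and was named after its values were seen. It stood at 6.42, 1.82, 6.87, 13.95 and 6.16 FPKM in uremic rats and at 29.3, 20.5, 52.02 and 12.9 FPKM in vitamin D controls (log2 -1.90, SE 0.45, adjusted p = 0.019), with rats 27 and 39 in overlap. Its call was lost without rat 36 or 38, and with the brown fat score as a covariate its difference shrank to -0.12, adjusted p = 0.91.

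**Figure D2:**
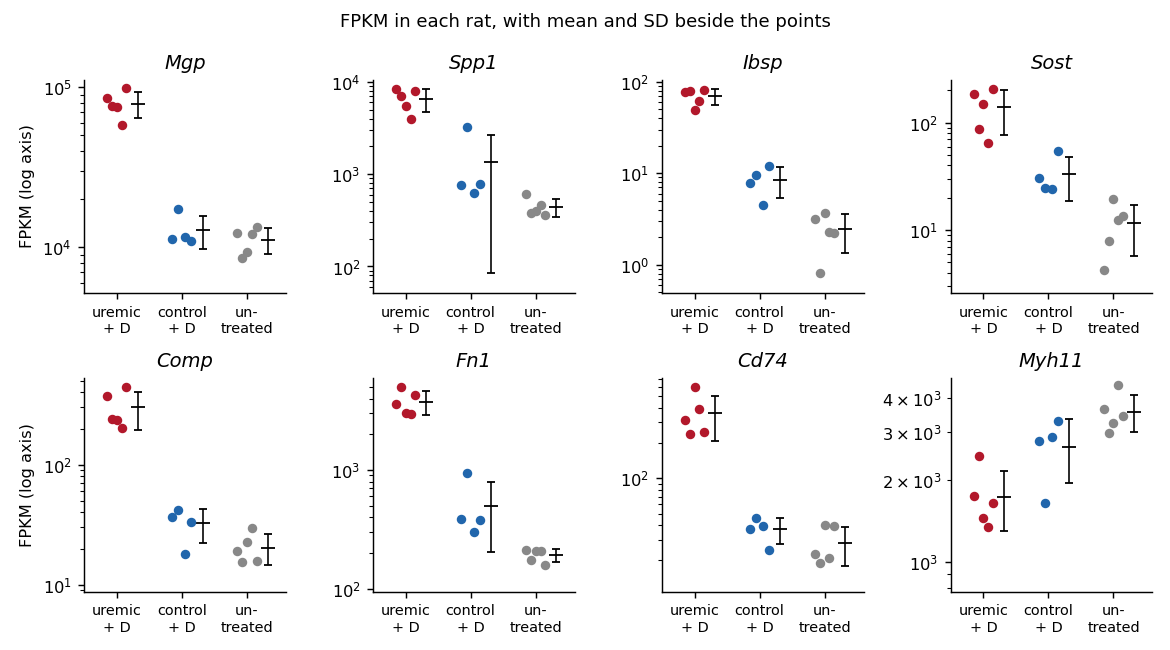
FPKM of 8 genes in each rat (points; log axes) in uremic rats given vitamin D, controls given vitamin D and untreated controls, with the group mean and SD beside the points. In the first 7 genes every uremic point lies above every control point; in Myh11 the groups given vitamin D overlap.

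All calls among the cartilage matrix genes were rises. Of 22 genes, 13 passed the filter, 8 rose and none fell, and the median log2 difference was 1.18. Comp, a cartilage protein that links collagen fibres, stood at 374, 242, 235, 203 and 444 FPKM in uremic rats and at 36.8, 41.9, 18.1 and 33.5 FPKM in vitamin D controls. Every uremic value was more than 4 times the highest control, and the mean rose 9.19-fold (log2 3.16, SE 0.28, adjusted p = 2.0e-04). Acan, aggrecan, the large proteoglycan of cartilage, rose from 0.581 ± 0.023 FPKM to 13.3 ± 7.28 FPKM (log2 3.00, SE 0.37, adjusted p = 8.9e-04), at 185 to 566 reads per uremic library and 8 to 17 per control. Acan passed the filter through uremic rats alone. The leucine-rich protein Chad (log2 1.94) and Cilp, a protein of the middle zone of cartilage (log2 2.01), rose without overlap. Further called members, named after their values were seen, were Prg4, the lubricating proteoglycan of joints (log2 2.53), and Chi3l1, a chitinase-like glycoprotein (log2 2.52). Chi3l1 ran from 12.1 to 25.1 FPKM in uremic rats and overlapped with the controls through rat 37, at 14.5 FPKM. The other controls stood at 1.36, 1.34 and 0.716 FPKM.

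Calls among genes that restrain mineral or handle phosphate were all rises. Of 19 genes, 14 were tested, 7 rose and none fell (median log2 0.44). Ankh, which exports pyrophosphate and its precursor from the cell, stood at 131, 92.5, 125, 70.5 and 206 FPKM in uremic rats and at 22.7, 49.1, 33.7 and 26.7 FPKM in vitamin D controls (log2 1.85, SE 0.29, adjusted p = 0.0033). Enpp1, the ectoenzyme that makes pyrophosphate from ATP, averaged 19.9 ± 6.20 against 7.50 ± 4.22 FPKM (log2 1.35, SE 0.29, adjusted p = 0.012), and rat 37, at 13.8 FPKM, reached into the uremic range. Nt5e, which makes adenosine outside the cell, rose 3.00-fold without overlap (log2 1.52, SE 0.22, adjusted p = 0.0021). Bmp4, a bone morphogenetic protein, rose from 26.98 ± 8.25 FPKM to 80.4 ± 19.01 FPKM (log2 1.56, SE 0.22, adjusted p = 0.0017).

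Of the osteoclast and RANK axis genes, 9 of 15 were tested and 3 rose. These were Ctsk, cathepsin K, the collagen-degrading protease of osteoclasts and macrophages (log2 1.68), Atp6v0d2, a proton pump subunit (log2 1.29), and Tnfrsf11a, the receptor RANK (log2 0.71). The count was 5 without rat 27. Acp5, the tartrate-resistant phosphatase of osteoclasts, did not pass (log2 0.72, SE 0.24, adjusted p = 0.066). Of 15 vitamin D genes 4 were tested and 1 rose, Cd14, described with the macrophage genes. Vdr, the receptor itself, averaged 3.11 ± 0.757 FPKM in uremic rats and 1.80 ± 0.739 FPKM in vitamin D controls (log2 0.58, SE 0.23, adjusted p = 0.12, 95% interval 0.077 to 1.08). Cyp24a1, the enzyme that degrades the active vitamin, was listed at 0 in all 14 libraries.

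Among the matrix glycoproteins 8 of 16 tested genes rose and 1 fell (median log2 1.09). Fn1, fibronectin, an adhesive protein of wound matrix, stood at 3596, 5006, 3021, 2944 and 4323 FPKM in uremic rats and at 384, 936, 298 and 381 FPKM in vitamin D controls. Every uremic rat was above every control, and rat 37 was again the highest control. The mean rose 7.56-fold (log2 3.04, SE 0.32, adjusted p = 3.6e-04), and untreated controls averaged 192 ± 24.1 FPKM. Thrombospondins, which bind cells, calcium and growth factors, were divided. Thbs4 rose from 4.46 ± 3.56 FPKM to 55.5 ± 15.3 FPKM (log2 3.53, SE 0.33, adjusted p = 3.2e-04) and Thbs1 from 7.38 ± 10.8 FPKM to 54.3 ± 23.2 FPKM (log2 3.36, SE 0.60, adjusted p = 0.0055). Thbs2, named after its values were seen, was the member that fell, from 26.7 ± 4.26 FPKM to 16.3 ± 3.86 FPKM (log2 -0.70, SE 0.18, adjusted p = 0.026). The call of Thbs2 was lost without rat 36, 37, 39, 9 or 17. Tnn, tenascin N of bone and tooth matrix, rose from near 0 (0 to 0.416 FPKM) to 4.54 ± 2.32 FPKM (log2 2.21, SE 0.28, adjusted p = 9.9e-04). Tnn passed the filter through uremic rats alone. Ltbp2, a fibrillin-binding protein, rose 3.36-fold (log2 1.73, SE 0.24, adjusted p = 0.0017).

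The main collagens of the fibrils were not called. Col1a1 stood at 799, 250.1, 1360.4, 375 and 675 FPKM in uremic rats and at 515, 496, 798 and 785 FPKM in vitamin D controls. The uremic rats spanned the control range on both sides, and the log2 difference of -0.11 had a 95% interval from -1.02 to 0.80. Col3a1 differed by -0.092 (95% interval -0.70 to 0.52). Untreated controls averaged more than either group, at 1516 ± 277 FPKM for Col1a1 and 1537 ± 183 FPKM for Col3a1. Of 14 collagen chains tested 3 rose: Col8a1, a network collagen of vessels (log2 2.27, SE 0.22, adjusted p = 3.3e-04), Col5a2, a chain that regulates fibril width (log2 1.25), and Col16a1 (log2 0.85). The count was 6 without rat 27.

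Elastic fibre genes held 2 calls among 15 tested members, both lower. Their share of 13.3% stood beside 13.2% of all genes called and 6.03% of all genes called lower. The calls were Ltbp4, which helps elastin assembly (log2 -0.96, SE 0.22, adjusted p = 0.017), and Mfap2, a microfibril glycoprotein (log2 -1.13, SE 0.31, adjusted p = 0.034). The count was 0 without rat 38 and 1 without rat 17, 27, 28 or 39. Eln, elastin itself, did not pass (log2 -1.02, SE 0.47, adjusted p = 0.18) and ran from 918 to 5263 FPKM in uremic rats and from 3402 to 6951 FPKM in vitamin D controls. Of 19 proteases and inhibitors 4 rose, among them the macrophage protease Ctss (log2 2.05, SE 0.24, adjusted p = 6.5e-04) and Timp1, an inhibitor of metalloproteases (log2 1.52, SE 0.41, adjusted p = 0.032). Timp1 stood at 131 FPKM in rat 37 and at 27.9, 26.4 and 34.8 FPKM in the other controls, and its call was lost without 7 of the 9 rats in turn. The list's count was 2 without rat 17, 20, 28, 36, 38 or 39. The other risers were Ctsk and Mmp2, a gelatinase (log2 0.63, SE 0.18, adjusted p = 0.043), whose call was lost without 8 of the 9 rats in turn, with no filter, with equal totals and with the brown fat covariate.

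Nearly all tested macrophage genes and all tested MHC class II genes rose. Of 28 macrophage genes 25 were tested, 23 rose and none fell, with a median log2 difference of 1.53, and 22 or 23 were called whichever rat was left out. The groups did not overlap in 24 of them. Summed over the list, macrophage transcripts lay at 1176 to 1969.5 FPKM in uremic rats, 221 to 408 FPKM in vitamin D controls and 187 to 442 FPKM in untreated controls.

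Lyz2, lysozyme, an antibacterial enzyme of macrophages, stood at 269, 254, 329.5, 196 and 264 FPKM in uremic rats and at 23.6, 44.4, 29.7 and 13.3 FPKM in vitamin D controls (log2 3.30, SE 0.28, adjusted p = 1.8e-04). Cd68, a lysosomal glycoprotein used to mark macrophages, stood at 25.7, 29.3, 39.2, 40.6 and 46.4 against 8.13, 14.8, 14.4 and 9.57 FPKM (log2 1.56, SE 0.21, adjusted p = 0.0016). The lowest uremic value exceeded the highest control in both genes, by a wider margin in Lyz2. Gpnmb, a glycoprotein of lipid-laden macrophages and of osteoclasts, rose 4.02-fold (log2 1.92, SE 0.18, adjusted p = 3.2e-04), and Fcer1g, the signalling chain of Fc receptors, rose 2.93-fold (log2 1.52, SE 0.16, adjusted p = 3.6e-04). Cd14, the coreceptor for bacterial endotoxin and a target of vitamin D, rose from 5.99 ± 3.23 FPKM to 22.7 ± 4.11 FPKM (log2 1.85, SE 0.26, adjusted p = 0.0017).

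MHC class II molecules show peptides on macrophages, dendritic cells and B cells to helper T cells, and Cd74 is the chain that guides them to the compartment where peptides are loaded. All 6 tested members of the class II list rose, and none was lost when any 1 rat was left out. The list has 10 genes, and the others (the DM and DO chains) were below the filter. Cd74 stood at 312, 238, 601, 392 and 247 FPKM in uremic rats and at 36.9, 46.5, 39.7 and 24.7 FPKM in vitamin D controls, 9.69-fold higher (log2 3.19, SE 0.27, adjusted p = 1.8e-04). RT1-Bb stood at 48.4, 36.8, 75.9, 62.4 and 37.99 FPKM against 5.20, 10.5, 7.66 and 0 FPKM (log2 3.36, SE 0.58, adjusted p = 0.0046), with the value of 0 in rat 39. RT1-Da, RT1-Db1 and RT1-Ba, the other chains of the classical molecules, rose by 2.92, 2.90 and 2.82 on the log2 scale. Ciita, the factor that switches class II genes on, averaged 1.38 ± 0.53 FPKM in uremic rats and 0.193 ± 0.0274 FPKM in vitamin D controls, 7.12-fold higher without overlap (named after its values were seen; log2 0.96, SE 0.20, adjusted p = 0.012). Ciita passed the filter through uremic rats alone, and at such low levels log2(FPKM + 1) understates the difference. Rat 20 was the highest uremic rat in each of the 4 RT1 chains and in Cd74.

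The stretches upstream of the 4 RT1 chains are shown because these genes moved together and carry the Y box, the CCAAT element that class II promoters share, in the same orientation. Sequences are RefSeq's for the build GRCr8, which comes from another rat strain, and run 5′ to 3′ on the strand of the gene, with the match to CTGATTGG in capitals. They lie at chr20:4515328-4515385 (plus strand), chr20:4560223-4560280 (minus), chr20:4576976-4577033 (plus) and chr20:4604160-4604217 (minus).

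RT1-Da: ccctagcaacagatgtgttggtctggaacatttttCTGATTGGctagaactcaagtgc
RT1-Db1: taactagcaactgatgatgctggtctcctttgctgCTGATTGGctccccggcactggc
RT1-Ba: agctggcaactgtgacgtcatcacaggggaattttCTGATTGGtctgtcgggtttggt
RT1-Bb: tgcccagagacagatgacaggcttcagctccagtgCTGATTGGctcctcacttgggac

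The match began 52, 83, 46 and 64 bases before the annotated start of RT1-Da, RT1-Db1, RT1-Ba and RT1-Bb. CTGATTGG, searched on both strands (CCAATCAG on the other) in the 250 bases before the start, occurred in 5 of 8 class II promoters in the table. It occurred in 1068 of all 33469 promoters of the same length (3.19%). The Cd74 promoter held no match. A match describes the letters in this window and nothing about binding.

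Most complement genes rose as well, and the C1q chains are on this list and on the macrophage list. Of 17 tested complement genes 12 rose and none fell (median log2 1.12), with 9 rises without rat 36. Serping1, the inhibitor of the first complement proteases, averaged 651 ± 231 FPKM in uremic rats against 142 ± 15.1 FPKM (log2 2.14, SE 0.21, adjusted p = 3.3e-04). C1qb and C1qc, chains of the recognition molecule of the classical pathway, rose 3.54-fold and 3.48-fold, and the protease C1s rose 2.07-fold (log2 1.03, SE 0.15, adjusted p = 0.0022). Cd55, which protects cells from complement and was named after its values were seen, stood at 33.4, 18.7, 35.6, 24.2 and 60.2 FPKM against 5.11, 10.2, 4.57 and 1.73 FPKM (log2 2.53, SE 0.39, adjusted p = 0.0028).

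Cytokine, chemokine and adhesion genes gave 16 rises among 31 tested members and no fall (median log2 0.98). This count varied with the rat left out: it was 7 without rat 36, 8 without rat 38 and 20 without rat 37. The median log2 difference was 0.92, 0.92 and 1.33 in these 3 fits. Calls over all genes also dropped without rat 36 (663) or rat 38 (713). Il6, interleukin 6, stood at 10.9, 9.29, 21.3, 6.25 and 5.89 FPKM in uremic rats and at 0, 2.76, 0 and 0 FPKM in vitamin D controls (log2 2.93, SE 0.44, adjusted p = 0.0025). Rat 37 was the only vitamin D control above 0, so that Il6 passed the filter through uremic rats. Rises without overlap were also measured for Cxcr4, a chemokine receptor of many blood cells (log2 1.31), and Cxcl13, which draws B cells (log2 1.32). Ccl2, the monocyte chemokine, rose as well (named after its values were seen; log2 2.36, SE 0.55, adjusted p = 0.017), and overlapped through rat 37 at 11.7 FPKM.

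**Figure D3:**
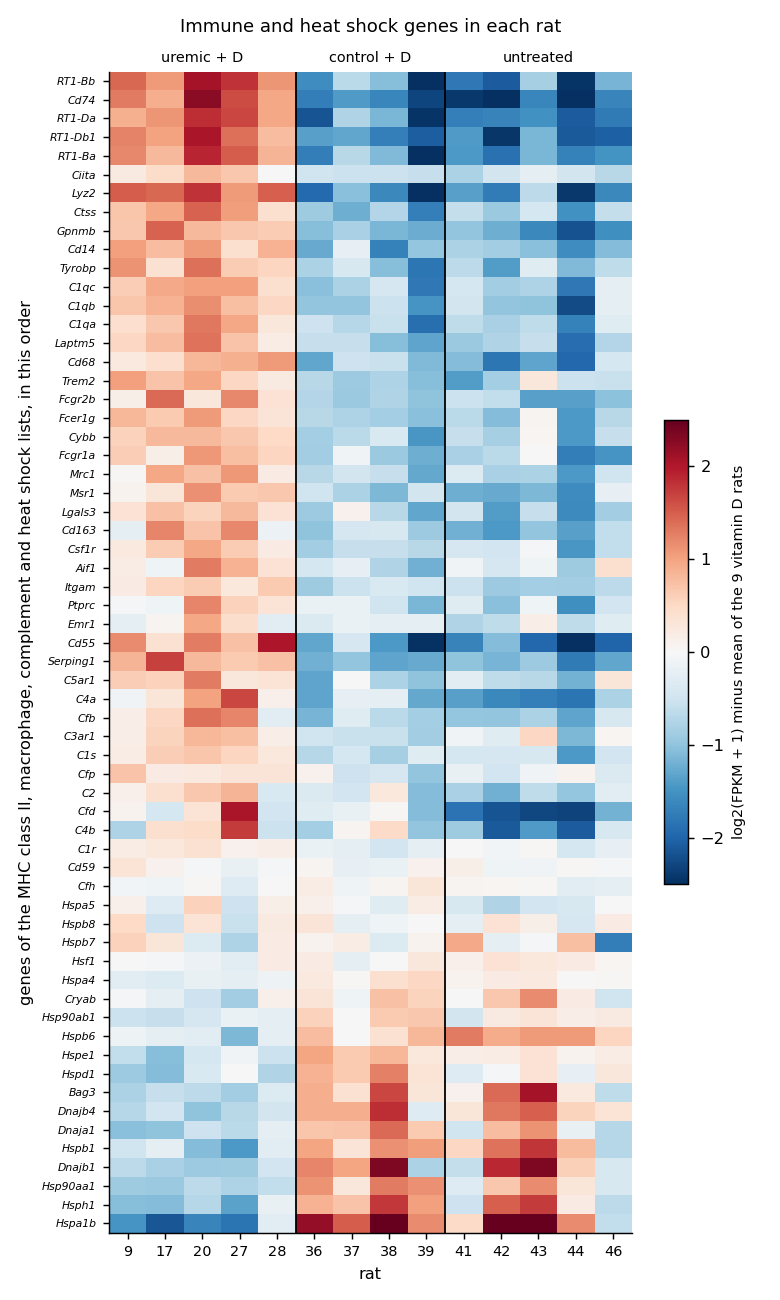
Log2(FPKM + 1) of each gene minus its mean over the 9 libraries given vitamin D, by rat (columns), for members of the MHC class II, macrophage, complement and heat shock lists that passed the filter; red is above that mean and blue below, cut at 2.5 either way. Class II and macrophage genes are mostly red in uremic rats and mostly blue in the others, complement genes less evenly so, and the lowest heat shock rows are blue in uremic rats and as red in untreated rats 42 and 43 as in rat 38.

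Lymphocyte genes gave no call: 5 of 28 passed the filter, and their sum lay at 20.2 to 47.6 FPKM in uremic rats and 19.5 to 22.6 FPKM in vitamin D controls. Interferon response and MHC class I genes gave 3 rises among 27 tested (11.1%, beside 7.19% of all genes): Ifit3 (log2 1.14, SE 0.26, adjusted p = 0.016), Gbp2 (log2 0.73) and Irf9 (log2 0.69). The count was 0 without rat 36, 1 without rat 9, 20, 28 or 39 and 5 without rat 27. In untreated controls Ifit3 averaged 7.89 ± 2.82 FPKM, beside 7.31 ± 2.05 FPKM in uremic rats and 2.89 ± 1.54 FPKM in vitamin D controls. The vessels had been rinsed to remove blood. Haemoglobin and other red blood cell genes were uneven, and their list summed to 1307 to 15736 FPKM in uremic rats, 388 to 1724 FPKM in vitamin D controls and 199 to 9092 FPKM in untreated controls. Rats 9 and 27 were highest among the uremic rats, at 15736 and 7820.1 FPKM. Of 10 tested members 2 rose (Hba2 and LOC689064), with 0 without rat 9, 20, 27, 36 or 38, 1 without rat 37 or 39 and 5 without rat 28, and whether blood in the vessel bears on the immune genes was not tested.

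Receptor and ligand genes of several signalling pathways rose in part. In the BMP and TGF-beta pathway all 35 genes were tested, 11 rose and none fell (median log2 0.42). The count was 3 without rat 9 or 36, 4 without rat 20 or 28 and 5 without rat 38. Beside Bmp4, the rises were led by Grem1, a secreted BMP antagonist (log2 1.62, SE 0.21, adjusted p = 0.0012), and Gdf6, a BMP family ligand (log2 1.57, SE 0.34, adjusted p = 0.013). The receptor Tgfbr1 rose by 0.68. In the Wnt pathway 2 of 23 tested genes rose, the receptor Fzd1 (log2 0.81) and the decoy Sfrp4 (log2 1.52), and the receptor Fzd4 fell (log2 -0.92). The call of Fzd4 was lost without 7 of the 9 rats in turn, and its difference turned to 0.045 with the brown fat score as a covariate.

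Genes that FGF signalling induces, and that in turn damp MAP kinases, gave 6 rises among 21 tested genes and no fall (median log2 0.69), with 10 without rat 37. Etv4, a transcription factor induced by FGF, stood at 7.72, 5.04, 5.47, 3.10 and 4.83 FPKM in uremic rats and at 0.806, 0.62, 0 and 0.34 FPKM in vitamin D controls (log2 2.11, SE 0.24, adjusted p = 6.5e-04). Etv4 was absent or barely present in both control groups, with 0.072 ± 0.1 FPKM in untreated rats, and passed the filter through uremic rats alone. Etv5 (log2 1.01) and the feedback inhibitors Spry1 (log2 1.42) and Spry4 (log2 1.00) rose with Etv4.

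The renin-angiotensin and vasoactive list held calls in both directions, 3 higher and 2 lower among 23 tested genes. That is 21.7% called, beside 13.2% of all genes (7.19% higher and 6.03% lower). The count of falls was 1 without rat 20, 28 or 38 and 4 without rat 37. Ace, the enzyme that makes angiotensin II, stood at 28.1, 56.5, 38.4, 40.4 and 46.9 FPKM in uremic rats and at 9.98, 13.6, 12.6 and 12.03 FPKM in vitamin D controls, 3.48-fold higher without overlap (log2 1.69, SE 0.18, adjusted p = 5.0e-04). Agtr1a, the receptor for angiotensin II, rose 2.57-fold (log2 1.07, SE 0.22, adjusted p = 0.01), and Edn1, the vasoconstrictor endothelin 1, rose 4.39-fold (log2 1.40, SE 0.27, adjusted p = 0.0076). Nr3c2, the mineralocorticoid receptor, fell from 7.29 ± 1.33 FPKM to 3.53 ± 0.707 FPKM (log2 -0.87, SE 0.17, adjusted p = 0.0077). Untreated controls stood with the vitamin D controls in Ace (13.2 ± 2.27 FPKM) and Nr3c2 (8.55 ± 1.60 FPKM). Igf1, insulin-like growth factor 1, was the riser among 12 genes of its family (log2 1.12, SE 0.27, adjusted p = 0.021), where the count was 0 without rat 20, 36 or 38 and 3 without rat 27.

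Of 28 cell cycle genes 21 were tested, and 8 rose (median log2 0.88). This count varied with the rat left out, at 2 without rat 38, 3 without rat 36, 4 without rat 9, 20, 28 or 39, 5 without rat 17 and 15 without rat 37. The median log2 difference was 0.83 without rat 38, 0.77 without rat 36 and 1.24 without rat 37. Ccnd1, cyclin D1, which starts the cycle, stood at 124, 41.1, 82.3, 53.9 and 129 FPKM in uremic rats and at 20.01, 33.8, 13.9 and 18.9 FPKM in vitamin D controls (log2 1.88, SE 0.35, adjusted p = 0.006). The mitotic genes were low everywhere. Ube2c, a mitotic ubiquitin enzyme, ran from 1.25 to 3.85 FPKM in uremic rats, at 3 to 9 reads, and from 0 to 0.631 FPKM in vitamin D controls (log2 1.60, SE 0.27, adjusted p = 0.0043). Ube2c passed the filter through uremic rats alone. Rat 37 was the only control above 0 for Ube2c and the highest for Kif20a, a mitotic kinesin, at 2.31 FPKM. Among 18 cyclin kinase inhibitors and p53 targets 4 rose: the growth arrest genes Gadd45b (log2 1.41) and Gadd45a (log2 1.02), the lysosomal galactosidase Glb1 (log2 0.93) and the stress cytokine Gdf15 (log2 1.15). Gdf15 passed the filter through uremic rats alone.

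Contractile genes of smooth muscle leaned lower, though most did not pass the test. Of 24 tested genes 6 fell (25%, beside 6.03% of all genes called lower) and none rose. The difference was negative in 21 of the 24, with a median log2 difference of -0.45. The count of falls was 1 without rat 36 or 38 and 3 without rat 20 or 39, and it was 11 after scaling to equal totals. With the brown fat score as a covariate 2 genes fell while the median difference went to -1.10, with Acta2 at -1.42, adjusted p = 0.11 and Myh11 at -1.10, adjusted p = 0.15. Myh11, the smooth muscle myosin heavy chain, stood at 1740.0, 2446, 1446, 1342 and 1648 FPKM in uremic rats and at 2781, 1638, 2878 and 3274 FPKM in vitamin D controls. Rat 37 lay inside the uremic range and the test was not passed (log2 -0.60, SE 0.26, adjusted p = 0.14, 95% interval -1.16 to -0.042). Acta2, smooth muscle actin, averaged 4257 ± 1509 against 6797 ± 1432 FPKM and did not pass either (log2 -0.72, SE 0.30, adjusted p = 0.14, 95% interval -1.38 to -0.053).

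The genes that fell include regulators of contraction. Ppp1r12b, a subunit of myosin phosphatase, fell from 129 ± 42.5 FPKM to 65.5 ± 9.28 FPKM (log2 -0.92, SE 0.21, adjusted p = 0.015). Mylk, the myosin light chain kinase, fell without overlap (log2 -0.65), and Ppp1r14a, an inhibitor of myosin phosphatase, fell with overlap (log2 -0.84). Myocd, myocardin, the coactivator that drives contractile genes, averaged 22.1 ± 8.25 FPKM in uremic rats, 53.6 ± 17.8 FPKM in vitamin D controls and 67.6 ± 34.1 FPKM in untreated controls (log2 -1.24, SE 0.28, adjusted p = 0.016). The calls of Myocd and Mylk were each lost without rat 36 or 38. The other calls, Cnn1 and Kcnmb1, were named after their values were seen (log2 -0.76 and -1.04). Of 11 tested transcription regulators of smooth muscle, Myocd fell and 1 rose. That is 18.2% called, beside 13.2% of all genes (7.19% higher and 6.03% lower). The transcription factors Srf (log2 -0.44, SE 0.14, adjusted p = 0.058) and Tead3 (log2 -0.54, SE 0.19, adjusted p = 0.08) did not pass. Mef2a rose by 0.35 (adjusted p = 0.049) and lost its call without any 1 of the 9 rats.

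Genes of energy metabolism gave the broadest falls. All of the 46 tested genes of oxidative phosphorylation had a negative difference and 42 fell, with a median log2 difference of -1.01, and the count was 22 without rat 36 and 25 without rat 38. Of 31 tested genes of fatty acid oxidation and the citrate cycle 25 fell (median log2 -1.56), and no member of either list rose. Cyc1, cytochrome c1 of the respiratory chain, stood at 21.6, 16.5, 29.4, 23.5 and 20.05 FPKM in uremic rats and at 74.7, 75.2, 117 and 39.8 FPKM in vitamin D controls (log2 -1.67, SE 0.26, adjusted p = 0.0031). Acadm, the dehydrogenase for medium-chain fatty acids, stood at 90.4, 82.6, 128, 174 and 92.8 against 492, 342, 603 and 235 FPKM (log2 -1.84, SE 0.29, adjusted p = 0.003). In both genes rat 27 was the highest or next to highest uremic rat and rat 39 the lowest control. Acaa2, the last enzyme of mitochondrial fatty acid oxidation, fell 4.92-fold (log2 -2.44, SE 0.50, adjusted p = 0.01).

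These falls came with a fall of brown fat transcripts, a tissue rich in mitochondria. Of 9 tested brown fat genes 6 fell (median log2 -1.80), and the list summed to 135 to 636 FPKM in uremic rats, 446 to 1818 FPKM in vitamin D controls and 355 to 888 FPKM in untreated controls. The count was 2 without rat 36 or 38 and 3 without rat 9, 17 or 28. Ucp1 stood at 9.18, 5.73, 23.2, 40.9 and 16.5 FPKM in uremic rats and at 141, 120.4, 289 and 62.1 FPKM in vitamin D controls (log2 -3.02, SE 0.52, adjusted p = 0.0047), and Elovl3 was listed at 0 in all 9 libraries. With the brown fat score as a covariate, none of the oxidative phosphorylation genes and none of the fatty acid oxidation genes passed, and their median differences shrank to -0.26 and -0.21. The score itself holds a respiratory chain subunit, Cox8b, and a gene of fatty acid oxidation, Cpt1b, so that this fit adjusts in part for the genes it measures. The part of brown fat in these falls was not tested. With the covariate 17 of 25 tested macrophage genes rose (23 without it), 5 of 6 class II genes (6 without it) and 7 of 17 complement genes (12 without it). The rises numbered 2 of 13 tested bone genes (5 without it) and 2 of 13 cartilage genes (8 without it). They numbered 2 of 16 matrix glycoproteins (8 without it) and 1 of 35 BMP and TGF-beta genes (11 without it). No member of the calcification, FGF, cytokine, cell cycle and lysosome lists passed.

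**Figure D4:**
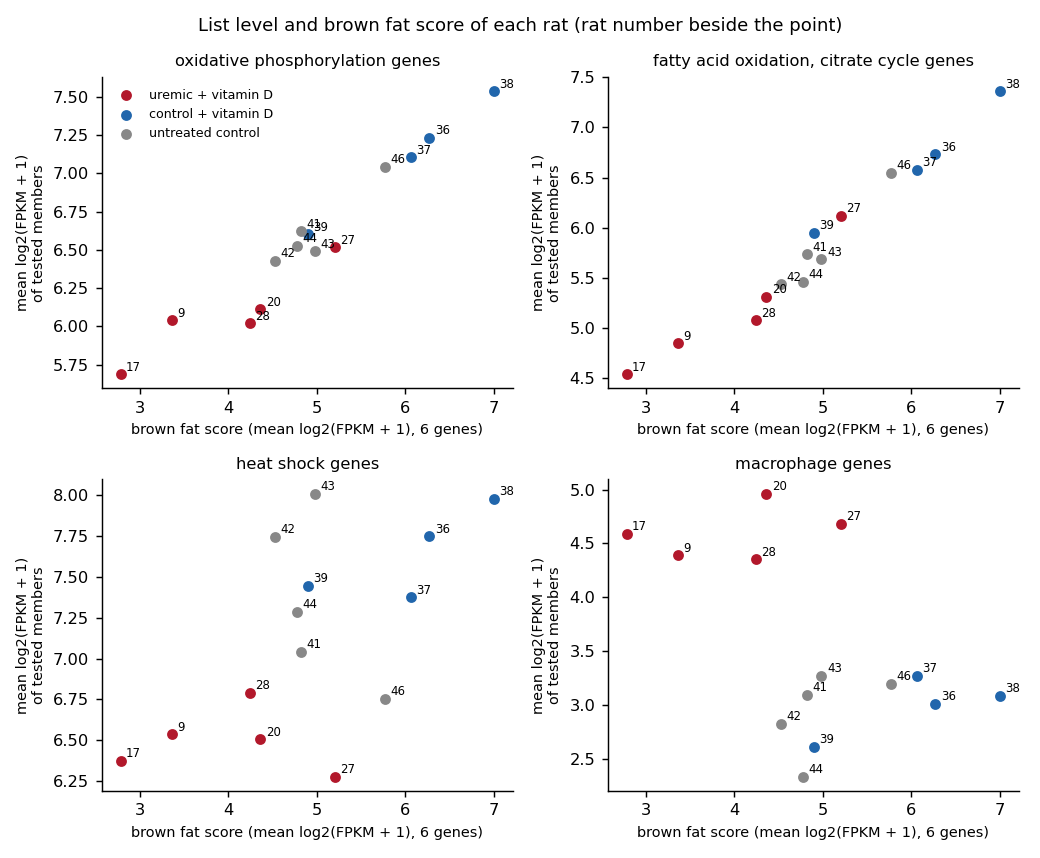
Mean log2(FPKM + 1) of the tested members of 4 gene lists (vertical axes) against the brown fat score (horizontal axes, the mean log2(FPKM + 1) of 6 brown fat genes) in each of the 14 rats, with rat numbers beside the points. On the horizontal axes uremic rats lie between 2.79 and 5.20 and vitamin D controls between 4.90 and 7.0, and the groups overlap at rats 27 and 39.

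White fat genes were lower in part. Of 22 tested adipocyte genes 8 fell and 1 rose (median log2 -1.20, which turned to 0.48 with the covariate). The count of falls was 4 without rat 38, 5 without rat 9, 17, 28, 36 or 37 and 15 without rat 27. The fallers include enzymes that make fat. Fasn, fatty acid synthase, fell 7.03-fold (log2 -2.93, SE 0.48, adjusted p = 0.0039) and Acly, which supplies its acetyl-CoA, fell 3.16-fold (log2 -1.67, SE 0.34, adjusted p = 0.0093). Scd1, a desaturase named after its values were seen, had the most negative difference of all called genes (log2 -3.87, SE 0.88, adjusted p = 0.015), at 10.7, 2.44, 171, 7.69 and 19.7 FPKM in uremic rats and 204, 163, 534 and 193 FPKM in vitamin D controls. Rat 20 alone reached the control range. Adipoq, the hormone adiponectin of fat cells, did not pass (log2 -0.69, SE 0.52, adjusted p = 0.42, 95% interval -1.83 to 0.44). Retn, resistin, was the riser (named after its values were seen; log2 1.28, SE 0.33, adjusted p = 0.028) and lost its call without rat 9, 17, 20, 38 or 39. In glycolysis 4 of 19 tested genes fell and none rose, led by Aldoc, an aldolase (log2 -1.17, SE 0.18, adjusted p = 0.0027), and Slc2a4, the insulin-regulated glucose transporter (log2 -1.46, SE 0.24, adjusted p = 0.0036). The glycolysis count was 7 without rat 27 and 8 without rat 39.

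Most tested heat shock genes fell in uremic aortas. Chaperones of this family fold damaged proteins, and their genes are switched on by heat shock factor through repeats of GAA and its complement. Of 20 genes 18 were tested, 13 fell and none rose (median log2 -1.32), and between 10 and 13 fell when any 1 rat was left out. Hsp90aa1, the inducible form of the chaperone HSP90, stood at 18.5, 17.9, 21.8, 19.9 and 22.3 FPKM in uremic rats and at 76.7, 42.5, 87.4 and 78.3 FPKM in vitamin D controls (log2 -1.73, SE 0.19, adjusted p = 5.0e-04). Hsph1, a large partner of HSP70, stood at 56.7, 56.1, 72.3, 46.8 and 105 against 217, 196, 409 and 243 FPKM (log2 -1.96, SE 0.26, adjusted p = 0.0013). Both genes fell without overlap, and the uremic rats were closely grouped in Hsp90aa1.

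Hspa1b, the inducible HSP70, had the most negative difference among genes named by rule (log2 -3.32, SE 0.36, adjusted p = 5.0e-04), at 11.8, 7.04, 10.3, 8.99 and 28.2 FPKM against 163, 101, 199 and 79.2 FPKM. The table places 18 genes at 1 locus there, and a near-identical copy, Hspa1a, exists, so that its level is uncertain. Dnaja1, a cochaperone of HSP70, fell 2.98-fold (log2 -1.56, SE 0.21, adjusted p = 0.0015). The mitochondrial chaperonins Hspd1 (log2 -1.40) and Hspe1 (log2 -1.24), named after their values were seen, fell as well. Untreated controls were spread widely: Hspa1b stood at 48.3, 205, 273, 79.2 and 22.3 FPKM in rats 41, 42, 43, 44 and 46, from near the uremic level to above all vitamin D controls. The heat shock list summed to 2587 to 3635 FPKM in uremic rats, 5031 to 8134 FPKM in vitamin D controls and 3639 to 9196 FPKM in untreated controls. With the brown fat score as a covariate 4 members fell.

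The upstream stretches of Hsph1 and Hspe1 are shown because both genes fell and both hold the full heat shock repeat close to their start. Capitals mark the match to 3 units in turn, GAA, TTC and GAA with 2 free bases between units, or their reverse complement (RefSeq, GRCr8; Hsph1 at chr12:10427297-10427359, plus strand, and Hspe1 at chr9:64084227-64084294, plus strand).

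Hsph1: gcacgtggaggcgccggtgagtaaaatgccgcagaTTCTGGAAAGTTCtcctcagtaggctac
Hspe1: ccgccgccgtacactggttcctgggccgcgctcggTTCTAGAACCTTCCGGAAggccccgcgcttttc

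The match began 36 bases before the start of Hsph1 and 65 before that of Hspe1, where a pair of overlapping matches forms 1 run that the facing gene Hspd1 shares. This repeat, searched on both strands of the same window, occurred in 4 of 15 heat shock promoters in the table and in 222 of all 33469 promoters (0.663%). The 4 were those of Hsph1, Hspe1, Hspd1 and Hspa8. The expression row named Hspa8 (chromosome 11, 17153157 to 17155257, rn5) was below the filter. It was paired with the promoter by symbol alone, and whether both belong to the same gene was not tested. Other called genes of the list, such as Dnaja1, held no match in this window.

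AP-1 and other immediate early genes moved both ways, 6 higher and 3 lower among 18 tested. Junb, an AP-1 subunit, rose 3.44-fold (log2 1.81, SE 0.27, adjusted p = 0.0025) and Egr2, a zinc finger factor, rose 4.88-fold (log2 2.36, SE 0.50, adjusted p = 0.012). Jund, the AP-1 subunit present in resting cells, fell from 439 ± 72.2 FPKM to 236 ± 53.7 FPKM (log2 -0.91, SE 0.18, adjusted p = 0.0086), and untreated controls stood at 874 ± 158 FPKM. Nr4a3, an orphan nuclear receptor, fell 3.47-fold (log2 -1.62, SE 0.29, adjusted p = 0.0053). The count of rises was 2 without rat 38 and 3 without rat 20 or 36.

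Redox genes were also divided, 5 higher and 4 lower among 30 tested. The rises were 3 without rat 38 and the falls 1 without rat 36 and 2 without rat 28 or 38. Gpx3, the secreted glutathione peroxidase that in blood comes mainly from the kidney, stood at 2054, 3002, 1748, 1909 and 1390.3 FPKM in uremic rats and at 506, 427, 363 and 376 FPKM in vitamin D controls. Every uremic rat was at more than 2 times the highest control, and the mean rose 4.83-fold (log2 2.24, SE 0.22, adjusted p = 3.3e-04), with 482 ± 86.5 FPKM in untreated controls. Nqo1, a quinone reductase (log2 0.99), and the metallothionein Mt1a (log2 1.94) rose, and Prdx3, a mitochondrial peroxiredoxin, fell (log2 -0.95). Lysosomal genes gave 6 rises among 26 tested and no fall, with Ctsh (log2 0.83, SE 0.15, adjusted p = 0.0052) and Ctsa (log2 0.70) first, and the count was 2 without rat 36 and 3 without rat 9, 17, 20, 38 or 39.

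The largest difference among called rises on the log2(FPKM + 1) scale was that of Olr1, the scavenger receptor LOX-1 that takes up oxidised lipoproteins. Olr1 stood at 94.6, 43.9, 74.8, 27.9 and 91.4 FPKM in uremic rats, at 1.20, 11.7, 0.988 and 1.06 FPKM in vitamin D controls and at 0.0957 to 0.417 FPKM in untreated controls (log2 4.23, SE 0.54, adjusted p = 0.0012). Again rat 37 was the highest control by far. Pnoc, the precursor of the neuropeptide nociceptin, rose from 3.46 ± 3.96 FPKM to 34.3 ± 12.9 FPKM (log2 3.24, SE 0.43, adjusted p = 0.0013), and Kcnk2, a mechanosensitive potassium channel, from 0.716 ± 0.728 FPKM to 12.4 ± 6.02 FPKM (log2 2.97, SE 0.33, adjusted p = 5.0e-04).

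Several of the largest falls were in membrane or signalling proteins outside energy metabolism. Slc22a2, an organic cation transporter known from the kidney, stood at 2.57, 3.59, 2.14, 2.99 and 6.01 FPKM in uremic rats and at 49.8, 8.55, 29.6 and 43.7 FPKM in vitamin D controls, while untreated controls averaged 57.04 ± 7.89 FPKM (log2 -2.74, SE 0.43, adjusted p = 0.0031). Sh3bgr, a small protein of muscle, was evenly low in uremic rats at 36.8 ± 3.92 FPKM, against 218 ± 89.2 FPKM in vitamin D controls and 354 ± 43.7 FPKM in untreated controls (log2 -2.44, SE 0.25, adjusted p = 3.5e-04). Crhr2, the receptor for urocortins, fell from 6.67 ± 2.08 FPKM to 0.653 ± 0.422 FPKM (log2 -2.22, SE 0.25, adjusted p = 5.7e-04), and untreated controls averaged 12.6 ± 3.51 FPKM. Sh3bgr and Crhr2 passed with the brown fat score as a covariate (log2 -2.86, adjusted p = 0.0065 and log2 -1.95, adjusted p = 0.044), and Slc22a2 did not (log2 -2.93, adjusted p = 0.065). Fndc5, the membrane precursor of irisin, fell 4.82-fold (log2 -2.14, SE 0.36, adjusted p = 0.0042), and did not pass with the covariate (log2 -1.04, adjusted p = 0.24).

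Among the remaining lists of other tissues and housekeeping functions, 35.7% of tested fibroblast genes and 18.8% of tested endothelial genes were called. The other shares were near or under the 13.2% of all genes. Endothelial genes gave 3 rises among 16 tested, Plvap, a protein of fenestrated endothelium (log2 1.86, SE 0.31, adjusted p = 0.004), Pecam1 (log2 0.74) and Eng (log2 0.69), with 1 without rat 20, 36, 38 or 39. Adventitial fibroblast genes gave 4 rises, with Fap (log2 0.88, SE 0.19, adjusted p = 0.013) and Lum (log2 0.65, SE 0.16, adjusted p = 0.023) among them, and 1 fall (Pi16) among 14 tested. The rises were 2 without rat 36 or 38, and the fall was lost without 6 of the 9 rats in turn. None of 11 heart and skeletal muscle genes and none of 18 amino acid and endoplasmic reticulum stress genes was called. In cholesterol synthesis 3 of 22 tested genes fell (13.6%, beside 6.03% of all genes called lower), and the count was 0 without rat 28 and 1 without rat 17, 36, 37 or 38. Nerve genes gave 1 rise among 10 tested (Uchl1, log2 1.05), and clock genes 1 rise (Bhlhe40) and 1 fall (Nfil3) among 15, and each of these 3 calls was lost without 6 of the 9 rats in turn. The 1 tested mesothelial gene was not called. The share of rises was near the 7.19% of all genes in the Wnt (2 of 23), insulin-like growth factor (1 of 12), smooth muscle regulator (1 of 11), nerve (1 of 10) and clock (1 of 15) lists. Ribosomal protein genes gave 2 falls among 32 tested, Rps10 (log2 -0.83) and Rps23 (log2 -0.64), with 1 without rat 9, 20, 28, 36 or 39, and 8 falls after scaling to equal totals. The 2 falls are a share near the 6.03% of all genes called lower.

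**Figure D5:**
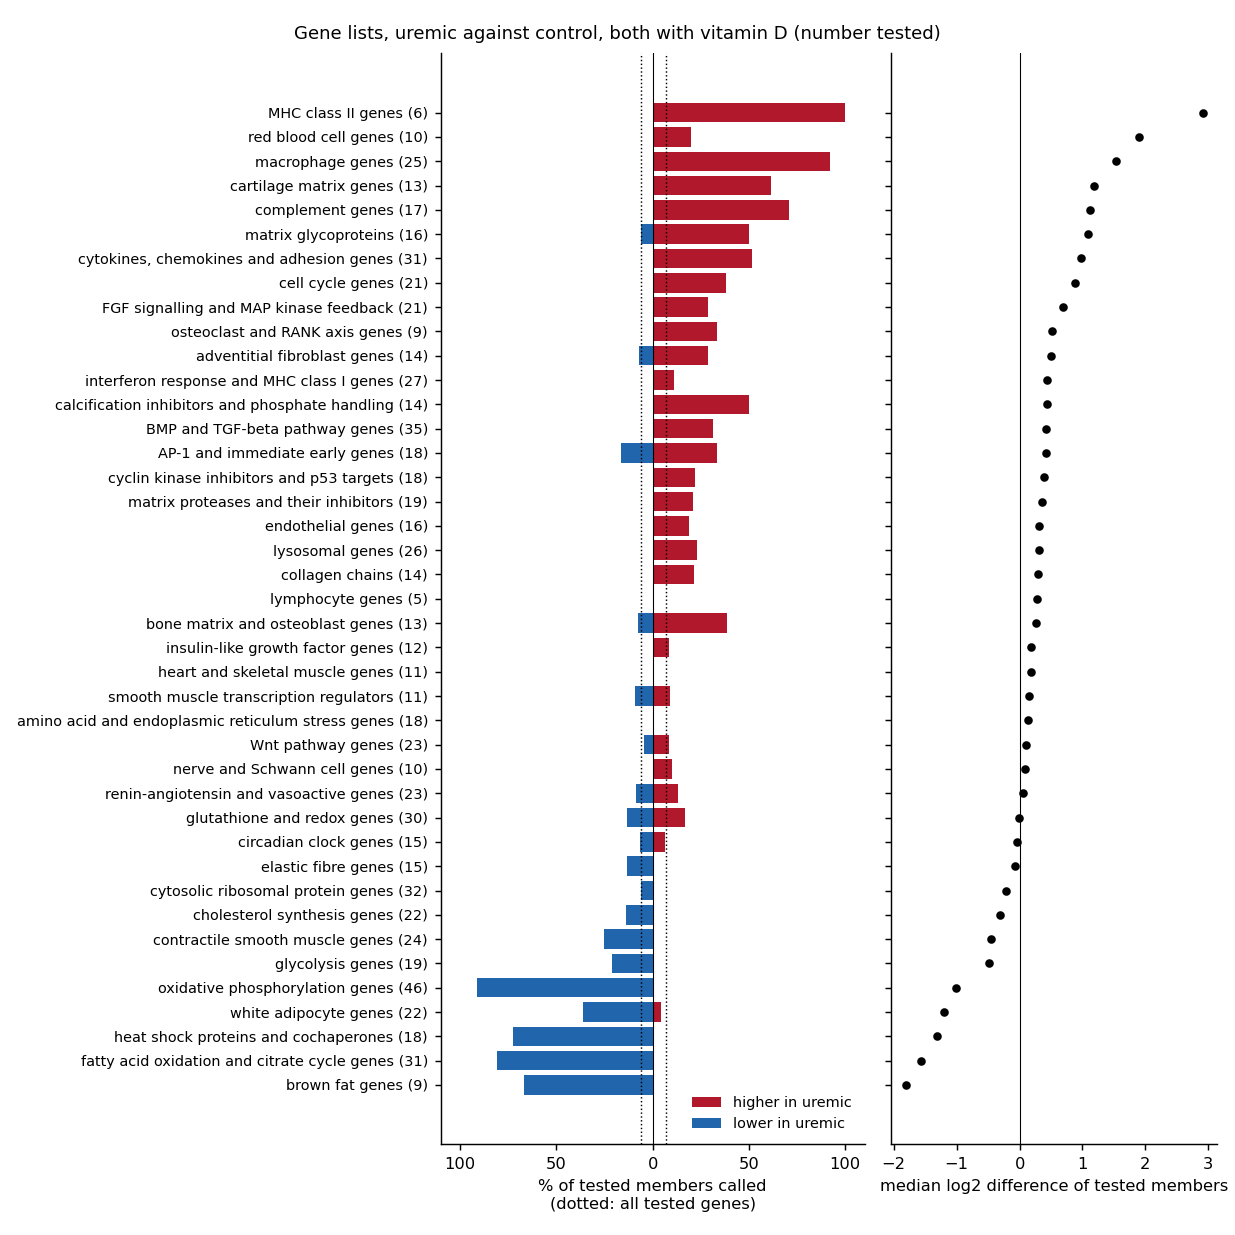
Share of the tested members of each gene list called higher (red) or lower (blue) in uremic aortas, with the number tested in brackets, and at right the median log2 difference of the list; dotted lines mark the shares over all 9916 genes (7.19% higher, 6.03% lower). Lists with fewer than 5 tested members are left out, and lists share some genes. MHC class II genes stand at the top with all members called, the red blood cell list next to it has few calls, and oxidative phosphorylation, adipocyte, heat shock, fatty acid oxidation and brown fat genes stand at the bottom.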

How the data were processed

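The authors deposited 1 table of FPKM values for 17019 rat genes in 14 aortic libraries, with group means and a q value for each comparison. The submitters' processing notes name cutadapt 1.3, TopHat2 2.0.10, Cufflinks 2.1.1, Cuffdiff and the build rn5; settings, annotation and strand handling are not given in the sources used here. The header names no unit, and FPKM was read from these tools and from the values. Of 11294 genes above 0 in at least 8 of the 14 libraries, 10914 (96.6%) held whole multiples of a step per gene and library. The same was found in 0% of 500 shuffled genes. These whole reads gave the depths quoted. The library scaling behind the values is not given in the sources used here. The deposited group means equal the means of the library columns within a relative gap of 6.94e-06.

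Genes at 1 FPKM or more in at least 4 of the 9 libraries were fitted with limma 3.58.1 (R 4.3.3, trended prior, two-sided) on log2(FPKM + 1), a scale that understates changes of low genes. Adjusted p-values are Benjamini-Hochberg values over all 9916 genes. Rats are the replicates. Alternatives were pseudocounts of 0.1 and 0.01, no filter or a mean of 5 FPKM, scaling by equal totals, by median ratios or by quantiles, a fit over all 14 libraries, array weights, robust moderation, the brown fat score as covariate, voom on recovered reads (1238 calls among 9541 genes), an exact rank-sum test, and each rat left out. A fit of the genes with recovered reads alone was chosen after seeing the data. Genes were named by rule: the 12 largest rises and 12 largest falls without overlap and with at least 5 FPKM in the higher group, up to 4 members of each of 43 gene lists with the smallest p, and a fixed set. The 6 genes of the brown fat score are named as its parts. Some genes that the rule picks are not reported here. Outside it, Bglap, Ccl2, Cd3e, Cd55, Chi3l1, Ciita, Cnn1, Eln, Elovl3, Hspa8, Hspd1, Hspe1, Kcnmb1, Ms4a1, Myh6, Myl7, Phospho1, Pi16, Prg4, Retn, Scd1 and Thbs2 were named after their values were seen. The comparison, the lists and the rule were chosen with earlier results of these data known. In 25 gene names a spreadsheet had turned the symbol into a date (19 tested), and these were not named. Promoter sequences are RefSeq's (GRCr8), matched by symbol; no coordinates were converted between builds.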

Additional observations from a re-analysis of the deposited data

Results flagged for a closer look

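In each named gene the highest and lowest rat of each group were set against the rest by Dixon's test at the 95% level. Chance passes it in about 1 in 20 groups of normal values. FPKM need not be normal, and genes that move together are not independent. Where all other rats of a group were at 0, any value above 0 passes. This was so for Il6 and Ube2c in rat 37, Gdf15 in rat 36 and Myl7 in rat 28. Of 312 groups tested, 35 held a rat set apart, and 15 of these were rat 37, each time as the highest vitamin D control. In rat 37 the values were 17229 FPKM for Mgp, 3281 for Spp1, 936 for Fn1, 131 for Timp1, 80.6 for Junb, 23.6 for Thbs1, 14.5 for Chi3l1, 13.8 for Enpp1, 11.7 for Olr1, 9.39 for Pnoc, 2.76 for Il6, 2.31 for Kif20a, 1.22 for Gdf6, 0.631 for Ube2c and 0.416 for Tnn. All of these genes were called higher in uremic rats, so that rat 37 lay on the uremic side of the other controls in each. Its library was also the shallowest of the 9, and the part of this was not tested.

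The other vitamin D controls set apart were rat 38 with 575 FPKM for Dnaja1, 534 for Scd1 and 0.875 for the heart gene Myh6, and rat 36 with 0.412 for Gdf15. Among uremic rats, rat 17 was the highest for Serping1 (1061 FPKM), Prg4 (185), Rps23 (149.9), Gpnmb (109.9) and Atp6v0d2 (4.96). Rat 20 was the highest for Scd1 (171) and Fasn (42.3). Rat 27 was the highest for the brown fat genes Cidea (445) and Slc27a2 (26.2) and the lowest for Col5a2 (78.4) and Kcnmb1 (37.3). Rat 28 was the highest for Hspa1b (28.2) and, at levels near 0, for Myl7 (0.464), Myh6 (0.361) and the row named Hspa8 (0.255). Rat 9 was the highest for Bmp4 (113 FPKM).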

How the results depend on the processing

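Against 1311 genes called (713 higher, 598 lower), array weights called 1999 (975 of them lower), the brown fat covariate 147 (102 higher, 45 lower), and a change of at least 1 on the log2 scale left 590 (347 higher, 243 lower). Genes with a mean of at least 5 FPKM gave 442 higher calls, and scaling to equal totals gave 1039 lower calls. The exact rank-sum test called 0 genes in either direction, with 2035 at an unadjusted p under 0.05; its smallest possible p with 5 against 4 rats is 0.0159. Leaving out 1 rat gave 663 to 1681 calls, 410 to 861 higher and 253 to 820 lower; the fewest came without rat 36 and the most without rat 27. Of 135 named genes that were called, 98 stayed called whichever rat was left out and 36 with the covariate. Of the other settings, no filter ended 15 calls among named genes (Mgp and Timp1 included), quantile normalization 9 and scaling to equal totals 7. Signs turned in genes near 0 or tied to fat: Col1a1 (0.17 with array weights, 0.18 with the covariate, -0.41 to 0.20 with 1 rat left out, above 0 without rat 17, 27 or 38), Col3a1 (0.096 with array weights, -0.31 to 0.065 with 1 rat left out, above 0 without rat 17 or 27), and, with the covariate, Adipoq (1.24), Fzd4 (0.045) and the score's own members Cidea (0.067), Cox8b (0.50) and Slc27a2 (0.69). None of these was called there, and the cause was not tested. No paired analysis was possible because rat numbers are unique and the groups share none. Depth limits low genes: at a median of 59 reads per gene and library, genes of a few reads such as Ube2c rest on counts of 3 to 9.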

Other observations

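Some genes held different places in the untreated controls. Untreated rats, which share no library with the comparison, averaged 874 ± 158 FPKM for Jund and 1516 ± 277 FPKM for Col1a1, beside 439 ± 72.2 and 648 ± 165 FPKM in vitamin D controls. For Mgp, Cd74 and Ace they stood at 11135 ± 2072, 28.3 ± 10.3 and 13.2 ± 2.27 FPKM, beside 12730.5 ± 3015, 36.9 ± 9.08 and 12.1 ± 1.54 FPKM in vitamin D controls and 78679.5 ± 14872, 358 ± 149 and 42.04 ± 10.5 FPKM in uremic rats. These are values only, and no test against the untreated group was made.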
